A study of Solanum lycopersicum with 24 samples.

Results

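Never-ripe (Nr) is a tomato line homozygous for a mutation of an ethylene receptor, and its late fruit is orange where wild-type fruit is red. Late Nr fruit, which the labels call O (Nr O), was compared with red ripe fruit of the wild type Ailsa Craig 6 days after the breaker stage (AC Br+6). The mutant is in the Ailsa Craig background, so both groups share that background, and no fruit of either group is described as treated. Nr O was taken as the stage matching Br+6, because the series design describes Nr fruit at that stage as orange. The labels give the tissue as tomato, with no part of the fruit, and the receptor mutation is carried by the whole plant. Each group had 3 immunoprecipitated (IP) libraries, described as biological replicates, which are 6 of the 24 samples in the series. The other 6 IP libraries, of green fruit (Nr G and AC MG), were used only to look up the same genes, and the 12 input libraries were not analysed here. The 18 late-fruit peak lists held 1904 of the 4332 peaks listed in the series (44.0%), a peak being counted once per library and list.

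N1-methyladenosine (m1A) is adenosine methylated on the edge that pairs with other bases. It is a long-known mark of transfer and ribosomal RNA and has also been reported in mRNA. In the assay used here fragmented RNA is captured with an m1A antibody, and a peak is a stretch where captured fragments pile up. Ethylene is the hormone that drives ripening in tomato. Its receptors hold the response down when ethylene is absent, and the altered Never-ripe receptor no longer responds to it, so ripening stays incomplete. The peak lists give, for each peak, a fold enrichment made by the authors' peak caller, with a highest value of 50. That value was used to describe and order peaks within a list and was not tested between lists.

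Sequencing depth is unknown, since the lists hold no read totals, and no mRNA level was analysed here. A missing peak, less of the transcript, fewer cells making it and a shallower library therefore cannot be told apart. AC Br+6 replicate 3 stood apart from the other libraries: its mRNA list was the longest, 57 of its 854 mRNA peaks (6.67%) were over 500 bases long, and its longest peak was 1851 bases. In the other 5 late libraries 2 mRNA peaks each exceeded 500 bases (0.847% to 1.85%) and the longest was 522 bases. Many results that rest on that library are given with and without it, and calls of single genes are given with their replicate. Of the fruit markers, ASR1 had peaks in all 6 libraries, 2A11 in 2 Nr O and 2 AC Br+6 libraries, PG2A in 1 of each and E8 in 2 AC Br+6 libraries alone. No gene of the seed marker list had a peak. Of the leaf markers, CAB13 had a peak in 1 Nr O library and PSBR in 1 AC Br+6 library.

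The first question was whether late Nr fruit had as many m1A peaks as red ripe fruit. The mRNA lists held 108, 151 and 129 peaks in Nr O, against 188, 236 and 854 in AC Br+6. Every Nr O library had fewer mRNA peaks than every AC Br+6 library. The means were 129 ± 21.5 peaks in Nr O and 426 ± 371 in AC Br+6 (SD, n = 3 each). The difference in mean log2 number was -1.39 ± 0.69 (SE), and an exact permutation test, two-sided, gave p 0.1, the smallest possible for 3 against 3 libraries (adjusted p 0.16 over 8 tests). Without AC Br+6 replicate 3 the log2 difference was -0.72, and the 3 Nr O libraries still lay below the other 2 (exact permutation p 0.1).

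The circRNA lists differed less. They held 30, 31 and 31 peaks in Nr O, against 36, 36 and 52 in AC Br+6, again without overlap between the groups. The log2 difference was -0.41 ± 0.18 (SE; exact permutation p 0.1, adjusted p 0.16). It was -0.23 without AC Br+6 replicate 3. Peaks in lncRNAs numbered 2, 1 and 3 in Nr O, against 3, 3 and 10 in AC Br+6, and the groups overlapped (log2 difference -1.30 ± 0.74, SE; exact permutation p 0.3, adjusted p 0.4). The lncRNA difference was -0.72 without AC Br+6 replicate 3.

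**Figure D1:**
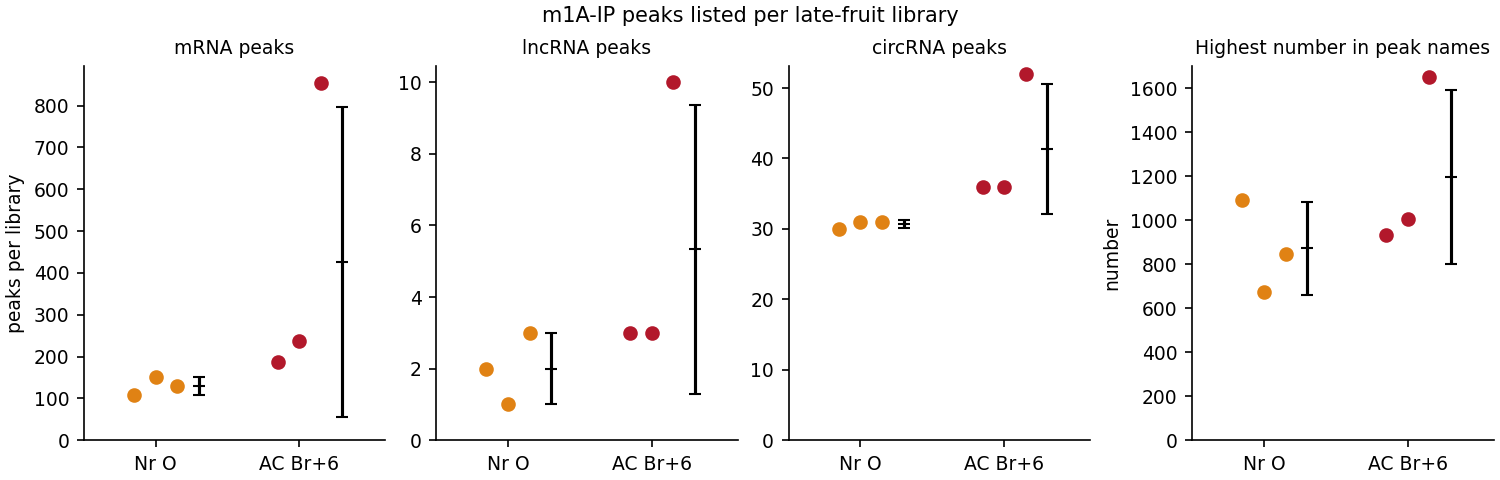
Points are the 3 libraries of each group, Nr O left and AC Br+6 right, with the mean and SD beside them; the y axes give peaks per library for mRNA, lncRNA and circRNA, and in the last panel the highest number found in a library's peak names. The mRNA and circRNA points of the groups do not overlap, while the highest peak numbers do (675 to 1094 in Nr O, 933 to 1651 in AC Br+6).

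The peak names carry a running number, which follows the chromosomes in order with few breaks, and this number gave a second view of the libraries that was chosen after the data were seen. The highest number was 1094, 675 and 846 in Nr O, against 933, 1005 and 1651 in AC Br+6, and here the groups overlapped. If the caller numbered its peaks from 1 without gaps, each is the least number of peaks it had made in that library, in and outside the listed transcripts. The log2 difference in this number was -0.44 (exact permutation p 0.3, not adjusted). Listed mRNA peaks made up 9.87%, 22.4% and 15.2% of the highest number in Nr O, against 20.2%, 23.5% and 51.7% in AC Br+6. Nr O replicate 1, with the shortest mRNA list, thus had the second highest peak number of the 6 libraries.

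The median mRNA peak was 183, 180 and 183 bases long in Nr O, against 200, 171 and 214 in AC Br+6, and the groups overlapped (difference -13 ± 12.7 bases, SE; exact permutation p 0.4, adjusted p 0.457). That difference was -3.5 bases without AC Br+6 replicate 3, -25 without replicate 2 and -28.2 with lists shortened to equal length. Median circRNA peak length was 631, 662 and 726 bases in Nr O, against 662, 637.5 and 645 in AC Br+6 (exact permutation p 0.7, adjusted p 0.7). The median fold enrichment of mRNA peaks was 16.7, 21.4 and 14.9 in Nr O, against 19.4, 14.4 and 11.9 in AC Br+6, values that belong to separate lists. A called gene had on average 1.04, 1.07 and 1.07 peaks in Nr O, against 1.09, 1.12 and 1.16 in AC Br+6, again without overlap (exact permutation p 0.1, adjusted p 0.16). That difference was -0.064 peaks per gene, and -0.044 without AC Br+6 replicate 3.

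Peak ends in the lists are tied to the annotation. Of 216 late circRNA peaks, 99 (45.8%) had the same peak name and chromosome as an mRNA peak of the same library, and all 99 had the same fold enrichment. Only 8 of those 99 had the same start and end in both lists, and 76 were shorter in the mRNA list. A peak length is therefore the length of the part listed for that transcript, and an identical start or end in several libraries can be a border of the transcript model. The numbers of peaks in the 3 RNA classes are likewise not separate measurements, since one peak can stand in more than one list.

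A gene is here called in a library when at least 1 mRNA peak lay in it. The late lists called 981 genes. Of these, 193 (19.7%) were called in Nr O and 906 (92.4%) in AC Br+6. The 118 genes called in both genotypes were 61.1% of the Nr O genes and 13.02% of the AC Br+6 genes. Nr O alone had calls in 75 genes (7.65%), and AC Br+6 alone in 788 (80.3%). Of the 788 genes, 596 were called in AC Br+6 replicate 3 and in no other late library. Without that library 385 genes remained, of which 89 were called in Nr O alone and 192 (49.9%) in AC Br+6 alone.

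Repeated calls gave a smaller set. Nr O called 2 genes (0.204%) in at least 2 of 3 libraries with 0 calls in AC Br+6, and AC Br+6 called 41 genes (4.18%) in at least 2 of 3 with 0 in Nr O. For 5 genes (0.51%) the split was 0 of 3 Nr O libraries against 3 of 3 AC Br+6 libraries, and no gene showed the opposite split. A single gene in this design cannot pass a test, so these are counts by a rule. Of the 41 genes, 38 were called in AC Br+6 replicate 3, 28 in replicate 2 and 21 in replicate 1. Without replicate 3 and with 2 of 2 calls asked for, 5 genes were called in Nr O alone and 8 in AC Br+6 alone.

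**Figure D2:**
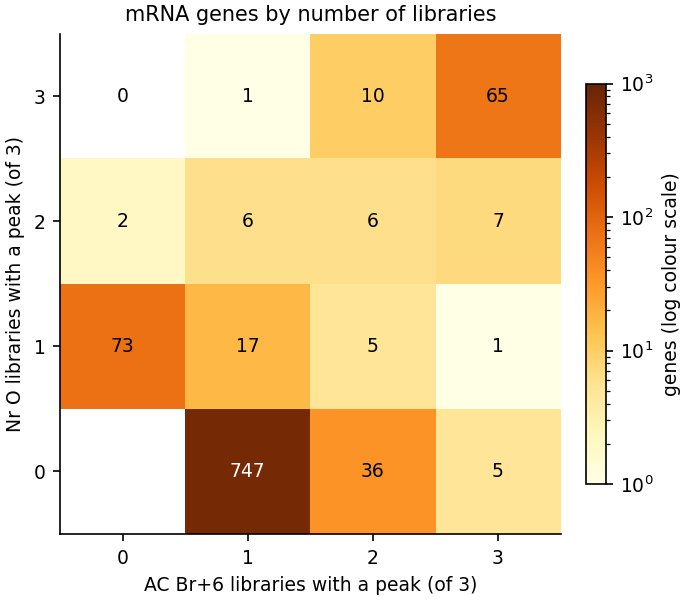
Each cell gives the number of mRNA genes called in that many Nr O libraries (y axis) and AC Br+6 libraries (x axis), coloured on a log scale. Most genes were called in 1 AC Br+6 library alone (747), and the next large groups are 73 genes called in 1 Nr O library alone and 65 called in all 6.

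Of the 5 genes called in every AC Br+6 library and in no Nr O library, the one with a known role is VI (Solyc03g083910), the vacuolar invertase that splits sucrose into hexoses in ripening fruit. It had no peak in the 3 Nr O libraries, against highest fold enrichments of 33.84, 17.74 and 23.1 in AC Br+6. Its peaks lay in 2 places of chromosome 3 (assembly SL3.00, as are all coordinates below). One began at 55280603 in all 3 AC Br+6 libraries and ended at 55281022 in replicates 1 and 2 and at 55281462 in replicate 3. The other ran from 55283179 to 55283404 in replicate 1 and from 55283016 to 55283499 in replicate 3. In green fruit VI was called in 2 AC MG libraries and in 0 Nr G libraries, so the mutant had no VI peak at either stage.

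The other 4 genes of that split have no description in the lists. Solyc12g006975 had fold enrichments of 21.06, 25.18 and 25.27 in AC Br+6 and the same peak position each time (chromosome 12, 1413087 to 1413541). Solyc05g014280 had 50, 9.53 and 29.54, and Solyc01g060085 had 3.76, 18 and 45.11. Solyc01g090480 had low values, 2.51, 3.97 and 1.94. Of the 4 genes, 3 were called in Nr green fruit, in 1 to 3 Nr G libraries, so a missing call in late Nr fruit did not mean that the mutant never had the peak. Solyc05g014280 was the exception, with 0 Nr G calls and 1 AC MG call.

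Described genes with 0 Nr O calls and calls in 2 of 3 AC Br+6 libraries numbered 14. Among them were stress and proteostasis genes. ELIP (Solyc09g082690), an early light-inducible protein of plastids, had fold enrichments of 49.07 and 17.83 in AC Br+6 replicates 2 and 3. The chaperone gene Solyc11g066100, for a heat shock cognate of 70 kDa that folds proteins, had 9.02 and 15.66 in replicates 1 and 3. A homolog of cell division cycle protein 48 (Solyc06g074980), a segregase that extracts ubiquitin-tagged proteins, had 5.01 and 15.89 in the same replicates. The ubiquitin-conjugating enzyme gene UBC1 (Solyc06g070980) had 8.47 and 12.92 in replicates 2 and 3. CysEP (Solyc03g111730), a KDEL-tailed cysteine endopeptidase of a family known from dying plant tissue, had 11.12 and 3.77 in replicates 2 and 3. The rule asked for 0 Nr O calls, so the lack of Nr O peaks in these 5 genes was fixed in advance. They were grouped by their descriptions, and whether such genes are frequent in the set was not tested.

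Regulators in the same group had lower values. ARF3 (Solyc02g077560), an auxin response factor, had fold enrichments of 2.91 and 2.52 in AC Br+6 replicates 2 and 3. The bZIP transcription factor 60 gene (Solyc04g082890), whose Arabidopsis counterpart acts in the response to unfolded proteins, had 2.38 and 2.4. BL2 (Solyc06g074120), a Bell-like homeodomain protein, had 4.51 and 9.37 in replicates 1 and 3. The ranges of these 3 regulators lay below the median of 12.92 for the highest fold enrichment over all 981 genes.

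Metabolic and other genes made up the rest. A cytochrome P450 94A1-like gene (Solyc09g066150), of a family that oxidises fatty acids, had 25.42 and 44.67 in AC Br+6 replicates 2 and 3. A chloroplastic phosphoserine phosphatase gene (Solyc06g076510), for the last step of serine synthesis from phosphoglycerate, had 2.76 and 22.29 in replicates 1 and 3. A gene like the 2-oxoglutarate-dependent dioxygenase AOP1 (Solyc02g062500) had 8.52 and 18.75. The remaining 3 were DMP3 (Solyc01g103580; 12.44 and 4.57), a QWRF motif protein gene (Solyc01g096840; 49.98 and 49.99) and the uncharacterized Solyc09g008970 (50 and 24.12). The QWRF gene was the only described one of the 14 called without replicate 3, and its listed peaks lay within 87717792 to 87717808 on chromosome 1.

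By the same rule, 2 genes were called in Nr O and not in AC Br+6. A phosphatidylinositol 3-kinase gene (Solyc04g015350, root isoform), of an enzyme that marks membranes for vesicle traffic, had fold enrichments of 4.2 and 3.14 in Nr O replicates 2 and 3, at the same position (chromosome 4, 5551902 to 5552001), and no peak in AC Br+6. Solyc03g121880, with no description, had 2.05 and 1.67 in Nr O replicates 1 and 3. Both genes had values well below the median of their lists. In green fruit the kinase gene was called in 1 AC MG library and 0 Nr G libraries, and Solyc03g121880 in 2 Nr G and 0 AC MG libraries.

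**Figure D3:**
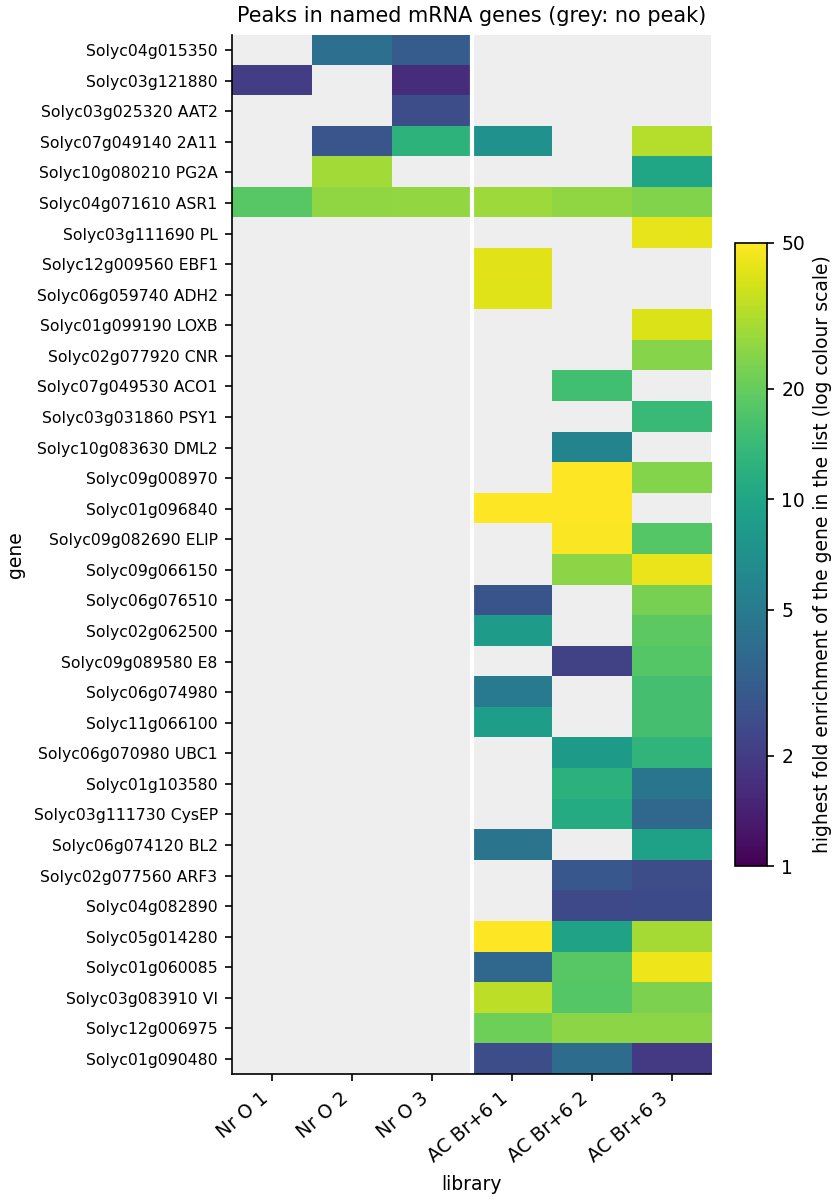
Rows are named mRNA genes and columns the 6 libraries, Nr O left of AC Br+6; colour gives the highest fold enrichment of the gene in that library's list on a log scale from 1 to 50, and grey marks no peak. ASR1 has a colour in every column, and 28 of the 34 genes are grey in all 3 Nr O columns.

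The late-fruit split of these 41 genes was looked up in green fruit, which had no part in choosing them. Of the 41, 19 (46.3%) were called in at least 1 Nr G library and 21 (51.2%) in at least 1 AC MG library. Both green genotypes had calls in 14 of them, Nr G alone had them in 5, AC MG alone in 7, and neither in 15. Genes called in 1 AC Br+6 library and 0 Nr O libraries had green calls in 82 of 747 (10.98%) for Nr G and 138 (18.5%) for AC MG. Of the 75 genes called in Nr O alone, 13 (17.3%) were called in Nr G and 20 (26.7%) in AC MG. Genes called in both late genotypes had higher shares than the 41. Of 53 such genes not called in all 6 late libraries, 36 (67.9%) were called in Nr G and 45 (84.9%) in AC MG. All 65 genes called in all 6 had calls in both green genotypes. These shares are counts, with no test.

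Ripening genes with fixed identifiers were examined next. Of 50 identifiers, 14 were called in a late library, 4 of them in Nr O and 13 in AC Br+6, beside 19.7% and 92.4% of all late genes, and 29 had no peak in any of the 12 IP libraries. NR itself (Solyc09g075440), whose mutation gives Never-ripe its name, was among those without a peak, so the lists hold no value that checks the genotype. RIN and NOR, transcription factors that act in ripening, and ACS2, an enzyme of ethylene synthesis, had none either.

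Genes of ethylene synthesis and response had calls in AC Br+6 alone, 0 of 4 in Nr O against 4 of 4 in AC Br+6, beside 80.3% of all late genes called in AC Br+6 alone. Without AC Br+6 replicate 3 the count was 3 of 3, beside 49.9% of all genes. As a share of the genes called in a library, these genes were 0.578%, 0.948% and 0.272% in AC Br+6. A count of 0 in an Nr O list allows shares of up to 2.88%, 2.13% and 2.48%, by counting error alone. These few calls therefore cannot show that the share differed. ACO1 (Solyc07g049530), for the last enzyme of ethylene synthesis, had a fold enrichment of 15.36 in AC Br+6 replicate 2. EBF1 (Solyc12g009560), an F-box protein that removes EIN3-type transcription factors and so dampens the ethylene response, had 42.12 in replicate 1. ERF84 (Solyc04g071770), named as an ethylene-responsive transcription factor, had 6.97 in replicate 3. E8 (Solyc09g089580), a classic ethylene-induced ripening gene, had 2.12 in replicate 2 and 17.95 in replicate 3, with its 2 peaks overlapping on chromosome 9 between 69774781 and 69775376. E8 was thus the one of the 4 called in more than 1 library. Of the ripening regulators, DML2 (Solyc10g083630), the DNA demethylase active in ripening fruit, had 5.83 in replicate 2, and CNR (Solyc02g077920) had 24.46 in replicate 3.

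Cell-wall genes had a call in Nr O for 1 of 7 and in AC Br+6 for 7 of 7, beside 19.7% and 92.4% of all late genes. In AC Br+6 alone 6 of 7 (85.7%) were called, near the 80.3% of all genes, and without AC Br+6 replicate 3 there were 2 of 3 (66.7%), with the other in Nr O alone. PG2A (Solyc10g080210), the polygalacturonase that degrades pectin in ripening fruit, had a peak of fold 29.23 in Nr O replicate 2, against a highest value of 10.06 among 3 peaks in AC Br+6 replicate 3. The Nr O peak (chromosome 10, 61687132 to 61687378) lay inside the AC Br+6 one (61687069 to 61687470). Pectate lyase PL (Solyc03g111690), which also cuts pectin, had 43.42 in AC Br+6 replicate 3, and the beta-galactosidase gene TBG3 (Solyc03g121540) had 7.89 there. A pectin acetylesterase gene (Solyc01g102350) had 27.8 in AC Br+6 replicate 2. Of the 6 cell-wall genes called in AC Br+6 alone, 4 were called in replicate 3 alone.

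Pigment and aroma genes gave single calls. Phytoene synthase PSY1 (Solyc03g031860), the entry enzyme of carotenoid synthesis, had 14.12 in AC Br+6 replicate 3 and no peak in Nr O. The lipoxygenase LOXB (Solyc01g099190) had 40.43 in the same library and the alcohol dehydrogenase ADH2 (Solyc06g059740) 41.61 in AC Br+6 replicate 1. AAT2 (Solyc03g025320), an alcohol acyltransferase that makes esters, went the other way, with 2.51 in Nr O replicate 3 and no peak in AC Br+6. Sucrose synthase sus3 (Solyc07g042550) had 19.66 in AC Br+6 replicate 3 and a starch synthase III gene (Solyc02g080570) 11.03 in replicate 1, so VI was the one sugar gene with repeated calls.

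Among the late libraries, heat shock and chaperone genes, whose products fold or refold proteins, had calls in AC Br+6 alone. Of 22 such genes, 0 were called in Nr O and 22 in AC Br+6, beside 80.3% of all 981 genes called in AC Br+6 alone. Per library the numbers were 0, 0 and 0 in Nr O, against 3, 4 and 16 in AC Br+6. Without AC Br+6 replicate 3 they were 7 of 7 genes, beside 49.9% of all genes. As a share of the genes called in a library, heat shock genes were 1.73%, 1.896% and 2.18% in AC Br+6. A count of 0 in Nr O lists of 104, 141 and 121 genes allows shares of up to 2.88%, 2.13% and 2.48%, by counting error alone. A single list of this length therefore says little about a lower share, and the Nr O lists were not tested together.

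Members of the heat shock list spanned several compartments. The heat shock factor gene HSTF24 (Solyc02g090820), for a transcription factor that turns on chaperone genes, and a dnaJ homolog (Solyc02g077670) each had a fold enrichment of 50 in AC Br+6 replicate 2. HSC80 (Solyc07g065840), a cytosolic chaperone of the 90 kDa class, had 7.68 in the same library. In green fruit HSC80 was called in 2 Nr G and 3 AC MG libraries, so a missing late call did not mean that the mutant never had a peak there. Small heat shock proteins were called for the plastid form HSP21 (Solyc03g082420; 12.23 in replicate 3), the endoplasmic reticulum form er-sHSP (Solyc11g020330; 49.85 in replicate 3) and a class II form (Solyc08g062450; 11.03 in replicate 1). The median of their highest fold enrichments was 16.7, beside 12.9 over all late genes.

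Among the late libraries, protein turnover and transcription factor genes had calls in AC Br+6 alone, mostly in replicate 3. All 23 genes of the ubiquitin and proteasome list were called in AC Br+6 and 0 in Nr O, but 20 of them were called in replicate 3 alone. They included 3 genes described as proteasome subunit beta (fold enrichments of 33.27, 16.92 and 23.09) and 2 polyubiquitin genes (14.63 and 36.57), all in replicate 3. In green fruit the 2 polyubiquitin genes were called in 2 and 3 Nr G libraries and in 1 and 2 AC MG libraries. Transcription factor genes were called in AC Br+6 for 11 of 11 and in Nr O for 0 of 11, with 8 of them in replicate 3 alone. Both counts stand beside 80.3% of all late genes called in AC Br+6 alone. Examples were MYB48 (Solyc11g073120; 46.87) and a CONSTANS-LIKE 13 gene (Solyc09g074560; 37.73), both in replicate 3. Without that library each of these 2 lists had 3 genes left, all called in AC Br+6 alone, beside 49.9% of all genes. As for the heat shock list, a count of 0 allows shares of up to 2.88%, 2.13% and 2.48% of the Nr O lists, against 0.578%, 0.948% and 2.72% for ubiquitin and proteasome genes and 0.578%, 0.948% and 1.22% for transcription factors in AC Br+6. The median highest fold enrichment was 14.6 for the ubiquitin and proteasome list and 6.97 for transcription factors, beside 12.9 over all late genes.

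Translation genes were called in both genotypes. Of 25 genes, 3 had a call in Nr O and 23 in AC Br+6, beside 19.7% and 92.4% of all late genes. In AC Br+6 alone 22 were called, or 88%, beside 80.3% of all genes. The median highest fold enrichment was 11.4. The ribosomal protein gene L9-1 (Solyc06g073310) was the one called in both, with 12.44 in Nr O replicate 2 and 49.73 in AC Br+6 replicate 3. The L36 gene (Solyc03g025520; 5.13 in Nr O replicate 2) and the initiation factor 6 gene (Solyc12g015790; 18.83 in Nr O replicate 3) were called in Nr O alone. Of the 22 genes, 16 were called in AC Br+6 replicate 3 alone, and without it 6 of 9 (66.7%) were called in AC Br+6 alone, beside 49.9% of all genes. The ribosomal protein S9-2 genes Solyc01g010580 and Solyc01g010540 had the same value, 5.49, and may share reads, so they count as uncertain.

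Plastid genes made up the longest list. They were taken by words in their descriptions, mainly chloroplastic, and ELIP was not matched by its spelling. Of 40 genes, 10 were called in Nr O and 34 in AC Br+6, with 6 in Nr O alone, 4 in all 6 libraries and 30 (75%) in AC Br+6 alone. The shares over all late genes were 19.7% in Nr O, 92.4% in AC Br+6 and 80.3% in AC Br+6 alone. Without AC Br+6 replicate 3, 7 of 17 (41.2%) were called in AC Br+6 alone, beside 49.9% of all genes. As a share of the genes called in a library they were 4.81%, 5.67% and 4.13% in Nr O, against 4.05%, 3.79% and 3.81% in AC Br+6. The numbers behind these shares were 5, 8 and 5 genes in Nr O, against 7, 8 and 28 in AC Br+6. The 4 genes called everywhere are part of each number and weigh more in a short list. The higher shares in Nr O therefore show no difference between genotypes beyond list length. Those called in Nr O alone included CAB13 (Solyc12g011450), a chlorophyll a-b binding protein of the light-harvesting antenna, with 26.84, and a geranylgeranyl diphosphate reductase gene (Solyc03g115980), whose enzyme makes the side chain of chlorophyll, with 31.25. A rubisco accumulation factor gene (Solyc11g006060) had 49.97. All 3 were called in Nr O replicate 2. In AC Br+6 the pheophytinase gene (Solyc01g088090), for an enzyme that degrades chlorophyll, had 4.57 in replicate 3. Genes of the green plastid were called in AC Br+6 alone too. The magnesium-chelatase subunit gene ChlH (Solyc04g015750) had 48.86 in replicate 3, and the photosystem II gene PSBR (Solyc07g066310) had 7.15 in replicate 2. These examples therefore show no split of green-plastid genes by genotype.

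**Figure D4:**
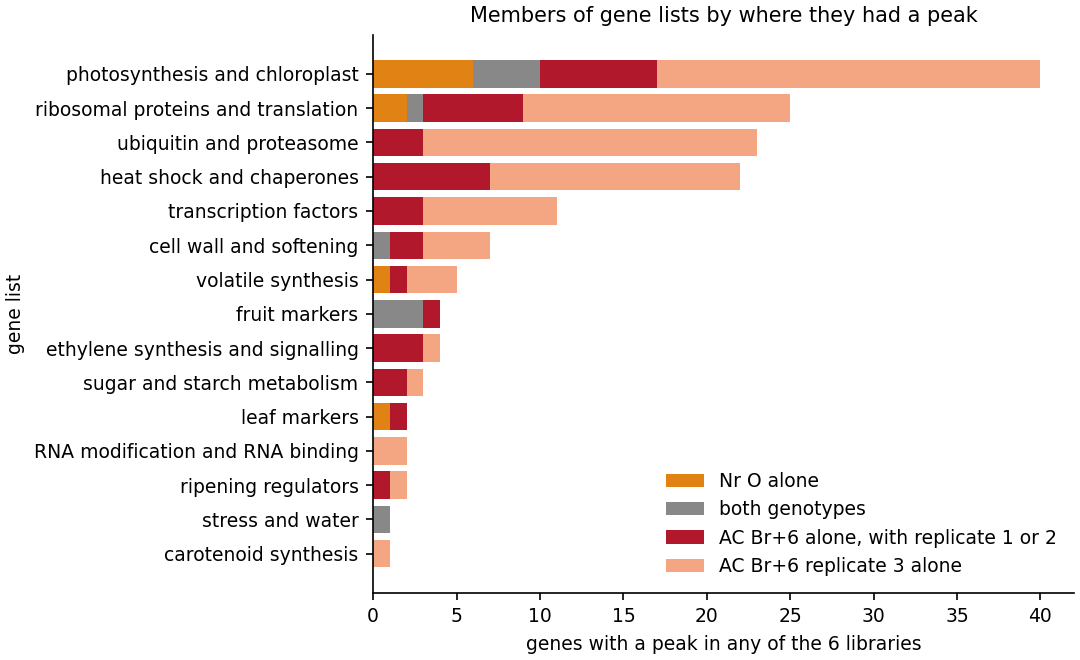
Bars give, for each gene list, the number of genes with a peak in any of the 6 libraries, split into genes called in Nr O alone, in both genotypes, in AC Br+6 alone with replicate 1 or 2, and in AC Br+6 replicate 3 alone. The palest part, replicate 3 alone, holds 20 of 23 ubiquitin and proteasome genes and 15 of 22 heat shock genes.

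Against these differences stood 65 genes (6.63%) called in all 6 late libraries. They were 62.5%, 46.1% and 53.7% of the genes called in the Nr O libraries, against 37.6%, 30.8% and 8.84% in AC Br+6. With the same 65 genes in every library, these shares follow from list length alone. Of the 65, 61 were called in all 12 IP libraries. Peaks of these 65 genes had a higher median fold enrichment than peaks of other genes in every late library of both genotypes. The median fold enrichment of their peaks was 31.0, 32.0 and 28.9 in Nr O, against 29.6, 30.7 and 27.2 in AC Br+6, while peaks in all other genes had medians of 3.76, 14.2 and 5.65 in Nr O, against 14.6, 9.80 and 11.2 in AC Br+6. Fold enrichment was 40 or more in all 6 libraries for 19 of these genes and under 10 in all 6 for 7.

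Single genes of this common set varied to different degrees among the 6 libraries. For 15 of the 65 the highest library value was more than 3 times the lowest, and for 34 it was less than 1.5 times. The 34 include the 19 genes at 40 or more throughout, where the limit of 50 leaves little room to differ, and 15 other genes. The value was higher in every Nr O library than in every AC Br+6 library for 2 genes and lower for 1. A gene described as protein SRG1 (Solyc01g067620) had 20.86, 17.1 and 20.3 in Nr O, against 16.04, 15.89 and 15.43 in AC Br+6. Solyc02g011873 had 10.62, 7.01 and 10.4 in Nr O, against 5.45, 5.66 and 3.29 in AC Br+6. Solyc07g039290 had 34.23, 33.82 and 9 in Nr O, against 35.83, 40.96 and 41.12 in AC Br+6. These values are the authors' per-list values, and no difference between them was tested.

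**Figure D5:**
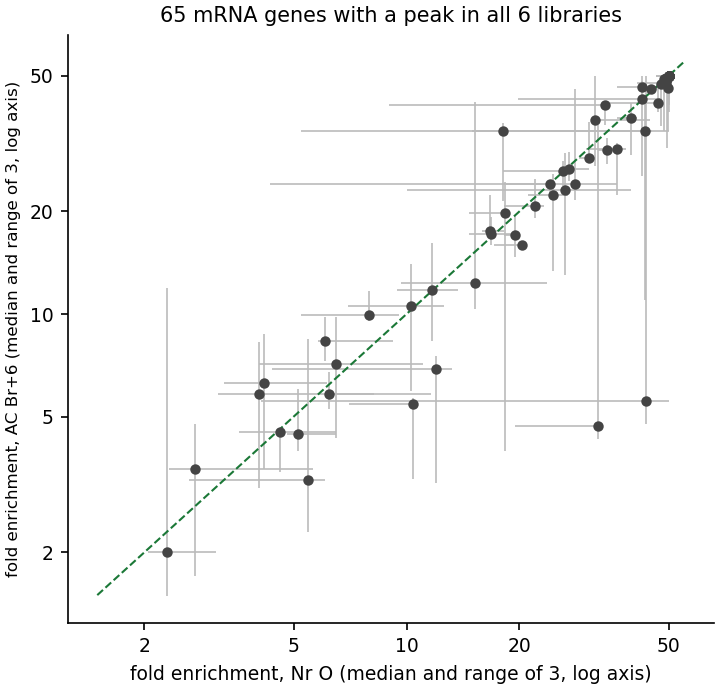
Each point is 1 of the 65 mRNA genes called in all 6 libraries, with the median fold enrichment of 3 Nr O libraries on the x axis and of 3 AC Br+6 libraries on the y axis (log axes); grey lines span the lowest to highest library and the dashed line marks equal values. Most points lie near the line, and the longest grey lines belong to genes whose replicates disagree within a genotype.

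Described genes of the common set were 15 of 65 (23.1%), against 31 of 75 (41.3%) among genes called in Nr O alone and 384 of 747 (51.4%) among those called in 1 AC Br+6 library alone. ASR1 (Solyc04g071610), a small hydrophilic protein induced by abscisic acid, stress and ripening, had highest values of 18.12, 26.11 and 26.43 in Nr O, against 28.16, 26.29 and 23.69 in AC Br+6. It had 2 peaks in every library, one from 58664498 to 58664650 on chromosome 4 and one that began at 58665339 and ended between 58665541 and 58665932. Solyc02g065740, described as UDP-arabinopyranose mutase, which supplies arabinose for the cell wall, and a gene of the BRISC and BRCA1-A complex (Solyc04g081500) stood at the limit of 50 in all 6. A cytochrome b-c1 complex subunit 8 gene (Solyc06g007540), of the mitochondrial respiratory chain, and the receptor-like protein 51 gene (Solyc02g072250) stood at 50 in 5 libraries, with 49.9 and 49.73 in AC Br+6 replicate 3.

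The described genes included some for organelle proteins. The twinkle homolog (Solyc02g022830), a helicase and primase of organelle DNA, ranged from 49.93 to 50, and a thioredoxin-like 4 gene (Solyc04g078910) from 48.76 to 49.89. A CRM domain gene (Solyc12g014280) had 48.75, 47.52 and 46.09 in Nr O, against 48.08, 47.28 and 35.55 in AC Br+6. The plastid transcription termination factor MTEF1 (Solyc01g007750) had 31.46, 31.71 and 44.57 in Nr O, against 37.1, 50 and 27.21 in AC Br+6. These 4 are the plastid genes called everywhere.

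Other members were weak or uneven in both genotypes. The gene for the acetyltransferase of the pyruvate dehydrogenase complex (Solyc07g006790) had 9.57, 7.93 and 5.23 in Nr O, against 9.53, 11.65 and 9.95 in AC Br+6. The protein phosphatase 2C 55 gene (Solyc12g089090) ranged from 3.97 to 6.5, and the calcium channel protein 1B gene (Solyc07g053970) from 2.29 to 8.47. A proline-rich protein gene (Solyc08g074480) had 4.1, 50 and 43.52 in Nr O, against 4.76, 5.56 and 49.7 in AC Br+6, so low and high values occurred in each genotype. The uncharacterized Solyc03g117210 had 18.12, 14.92 and 50 in Nr O, against 34.34, 36.27 and 21.38 in AC Br+6.

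The position of peaks was shared as well. Of the 65 genes, 35 had a peak that began and ended at the same bases in all 6, within the limit on peak ends given above. Over all mRNA peaks, 65.7%, 54.3% and 65.1% of those in Nr O had a peak at the identical position in an AC Br+6 library, against 38.8%, 32.2% and 8.90% of AC Br+6 peaks with one in Nr O. The difference was 35.1 ± 9.81 percentage points (SE; exact permutation p 0.1, adjusted p 0.16), and it was 20.1 without AC Br+6 replicate 3. The share depends on the length of the lists, and those of Nr O were the shorter ones, which by itself raises the Nr O share. Each value was also computed against the other genotype as labelled and was not recomputed for each arrangement. The test therefore cannot show a difference in peak position beyond list length. A pair of Nr O libraries shared 80 to 87 called genes, a Nr O and an AC Br+6 library 79 to 94, and a pair of AC Br+6 libraries 88 to 103.

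The common genes were spread unevenly over chromosomes. Chromosome 11 held 13 of the 65, which is 19.4% of its 67 called genes, while chromosome 5 held 1 of 61 (1.64%). Peaks on chromosome 11 made up 19.4%, 17.2% and 16.3% of mRNA peaks in Nr O, against 12.8%, 10.2% and 7.38% in AC Br+6. The 13 common genes had peaks in every library and so weigh more in a short list. The share was lowest in the longest list, and these shares show no difference between genotypes beyond list length.

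Circular RNAs repeated this pattern of a common core. Of 29 circles with a peak in a late library, 10 (34.5%) had one in all 6. They held 95.7% of Nr O circRNA peaks and 73.4% of AC Br+6 circRNA peaks. Peaks outside these circles numbered 1, 2 and 1 in Nr O, against 4, 8 and 21 in AC Br+6, so most of them in AC Br+6 were in replicate 3. A circle on chromosome 11 from 18750703 to 18845571 had 13, 13 and 12 peaks in Nr O, against 15, 12 and 14 in AC Br+6, and its highest fold enrichment lay between 49.17 and 49.81. Of its 79 peaks, 34 had the name of an mRNA peak, in Solyc11g027665, Solyc11g027690, Solyc11g027693 or Solyc11g027697. The lists name ribosomal RNA of the small or the large subunit as the host of 5 of the 10 circles. Peaks in circles hosted by ribosomal RNA, over all 29 circles, numbered 12, 11 and 11 in Nr O, against 11, 12 and 10 in AC Br+6.

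Some circles of the common set carried the mRNA peaks described above. The circle from 58638536 to 58672154 on chromosome 4 had the fold enrichments of ASR1 in every library, and all 13 of its peaks had the name of an mRNA peak, in ASR1 or Solyc04g071615. The circle from 58702926 to 58703148 on chromosome 8 had those of the proline-rich protein gene. The circle hosted by PG2 on chromosome 10 (61691834 to 61722625) had a peak in every library although PG2A itself was called in 2. Its values of 50, 50 and 46.24 in Nr O, against 50, 50 and 50 in AC Br+6, were those of Solyc10g080260, whose mRNA peak lies between 61722421 and 61722618 at the far end of the circle.

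Few circles had repeated calls in one genotype alone. Those with 0 Nr O calls and calls in at least 2 of 3 AC Br+6 libraries numbered 5 (17.2%), and no circle had the opposite split. The circle at 1412922 to 1413233 on chromosome 12, hosted by Solyc12g006975, was called in 3 of 3 AC Br+6 libraries with that gene's fold enrichments, so it repeats the mRNA result. A circle hosted by Solyc12g043110 on chromosome 12 (59699167 to 59714598) had 18.53 and 49.5 in AC Br+6 replicates 2 and 3. One hosted by Solyc08g066700 on chromosome 8 (55586368 to 55590040) had 50 and 22.06 in the same replicates. One hosted by Solyc06g007210 on chromosome 6 (1282119 to 1285143) had 20.56 and 20.12 in replicates 1 and 2, so it did not rest on replicate 3. The last, hosted by Solyc01g111020 on chromosome 1 (97348461 to 97364904), had 19.55 and 49.49 in replicates 1 and 3. Of 15 circles called in AC Br+6 alone, 8 were called in replicate 3 alone.

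Of 11 lncRNAs with a peak in late fruit, 4 had one in at least 2 libraries. Solyc06g011490, between other genes on chromosome 6, had 12.31, 10.42 and 4.39 in Nr O, against 6.77, 6.09 and 10.06 in AC Br+6, with a peak of 368 or 398 bases each time. It was the one lncRNA called in all 6. Solyc06g007680 had 4.1 and 3.14 in Nr O replicates 1 and 3, against 3.18 in AC Br+6 replicate 2. Solyc02g032360 had 15.27 in Nr O replicate 3, against 10.29 in AC Br+6 replicate 3. Solyc01g111080, which overlaps other genes in sense and antisense, had no peak in Nr O, against 2 peaks each in AC Br+6 replicates 1 and 3, with highest values of 19.55 and 49.59. Its peaks lay on chromosome 1 between 97361868 and 97369299, a stretch that the chromosome 1 circle hosted by Solyc01g111020 reaches into.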

How the data were processed

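Peak lists of m1A immunoprecipitated RNA were used for 3 Nr O and 3 AC Br+6 libraries. Per the labels' protocols, total RNA was fragmented, captured with an m1A antibody and treated with alkali, and whole-RNA libraries were made. Tools listed by the submitters' processing notes are HISAT2 2.0.4 and cutadapt 1.9.3. Peak names begin with MACS; its settings and control sample are not stated in any label or header, and the assembly is the one named by a scaffold in the lists. The deposited fold enrichment is a ratio from the authors' peak caller. The deposited score is 10 times the negative log10 of a peak's p-value per the file headers, and was not tested. The deposited FDR, in percent by its column name, equals 100 throughout and could filter nothing. Names such as VI, E8, CNR, PL, LOXB and ADH2 come from identifiers written into the gene lists, not from the files. Of 981 late genes, 465 had a description, and 461 of 462 NCBI gene numbers were in the reference table, whose coordinates (another assembly) were not used.

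With Python 3.11.15, pandas 2.3.3 and scipy 1.17.1, a gene was called in a library with at least 1 mRNA peak, identified by its transcript without version. A lncRNA peak repeated for several neighbouring genes was counted once. Per library, 8 values were set between groups with two-sided exact permutation tests (20 arrangements) adjusted by Benjamini-Hochberg; the tests were tried on simulated lists. P-values cover the spread between these libraries. Genes were named by rule: every gene called in all of one late group and none of the other, every gene called in at least 2 of 3 Nr O libraries alone, up to 20 described genes called in at least 2 of 3 AC Br+6 libraries alone, up to 15 described genes of all 6, called identifiers of the lists, and recurrent lncRNAs and circles; further list members were picked as examples after their values were seen. Members, lists and rules were chosen with earlier results of these data known. Alternatives were a median fold threshold, equal list lengths, stricter calls, other overlaps, and leaving out each library.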

Additional observations from a re-analysis of the deposited data

How the results depend on the processing

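No exact test here could pass 0.05 at these group sizes, so p-values say nothing about stability and the values are given instead. The difference in median mRNA peak length (-13 bases) ranged from -25 to -3.5 with a library left out and was -28.2 at equal list length. Leaving out 1 library at a time, log2 differences ranged from -1.81 to -0.72 for mRNA peaks, -1.66 to -0.72 for lncRNA peaks, -0.50 to -0.23 for circRNA peaks and -1.70 to -0.66 for called genes. The difference in median circRNA peak length (main value 24.8 bases) ran from -1.67 bases without Nr O replicate 3 to 45.8 without Nr O replicate 1. Counts by the call rule depended more on the setting. Genes of Nr O alone (2) ranged from 0 to 5 with a library left out, those of AC Br+6 alone (41) from 8 without AC Br+6 replicate 3 to 46 without Nr O replicate 2, and those called in all 6 libraries (65) from 66 to 70. Without AC Br+6 replicate 1 the 41 became 25, and without replicate 2 they became 18. With peaks below the median fold enrichment left out, the counts were 0 for Nr O alone, 17 for AC Br+6 alone and 41 for all 6. With 3 of 3 calls against 0 of 3 they were 0 for Nr O alone and 5 for AC Br+6 alone. With each list shortened to 108 peaks by fold enrichment they were 23 for Nr O alone, 9 for AC Br+6 alone and 23 for all 6, and all 23 Nr O genes had a call in the full AC Br+6 lists. In the gene calls, the labels' replicate numbers showed no pairing of the libraries. Same-number deviations of calls correlated at -0.12, 0.01 and -0.01, and 1 of 6 libraries correlated best with its own number. Whether libraries of the same number share a batch was not tested. With the replicate block the log2 difference in mRNA peaks stayed -1.39 (exact p 0.25, the smallest possible). The highest peak number gave -0.44, and lncRNA rows as deposited gave -2.36; both settings were chosen after seeing the data. The median fold threshold could not be run for lncRNA peaks, since it left AC Br+6 replicate 2 with none. Depth is unknown, so what it limits could not be measured.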

Other observations

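AC Br+6 replicate 3 had a counterpart in green fruit. In AC MG replicate 3, 20 of 308 mRNA peaks (6.49%) were over 500 bases long, as were 6.67% in AC Br+6 replicate 3, and the longest peak was 1854 bases in the AC MG library and 1851 in the AC Br+6 library. Peaks at the fold enrichment limit of 50 made up 3.25% of the AC MG list and 3.63% of the AC Br+6 list. In the other 10 IP libraries 0.847% to 1.85% of mRNA peaks exceeded 500 bases and 9.01% to 16.8% stood at the limit. The AC MG replicate 3 list was of ordinary length, so long peaks and a long list did not go together there. What these libraries share beyond genotype and number was not tested.

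The genes Solyc07g042597 and Solyc12g087875, on different chromosomes, had identical fold enrichments in 5 libraries, 2.39, 1.71 and 4.81 in Nr O and 3.26 and 3.44 in AC Br+6 replicates 1 and 2. Their calls count as uncertain, and whether they share reads was not tested.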
